A study of Mus musculus with 2 samples.

Results

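The genes described here move cholesterol into and out of liver cells: the lipoprotein receptor genes Lrp1 and Scarb1, the receptor regulator Mylip, the efflux transporter genes Abca1 and Abcg1, the biliary sterol transporter genes Abcg5 and Abcg8, and the esterification gene Soat2. The 8 genes were taken by name for their function, by a rule that uses no array signal but was written with earlier results of these arrays known, and every probe set annotated to a single one of these symbols was taken. This gave 11 probe sets for 7 genes, out of 12393 genes with such a probe set. No value is given for Soat2, which was not analysed here, so esterification is not represented and the values below concern uptake and efflux only.

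Both samples were liver RNA from male C57BL/6J-background mice deficient in apolipoprotein E. The labels give an age of 2 months. The control array carried the RNA pool of mice fed a semipurified Western diet, and the second array the pool of mice fed that diet with 0.01% oleanolic acid, a plant triterpenoid, giving 10 mg/kg per day. Feeding lasted 11 weeks, which is longer than the labelled age, so that age cannot be the one at which livers were taken. The arrays were assigned to the diets by their titles and diet labels; the growth protocol is the same text for the control as for the treated sample and mentions oleanolic acid in each, and the direction of every ratio rests on this assignment. There was 1 pooled array per diet (n = 1), so there is no measure of variation between mice, no p-value can be given, and each difference is a difference between these 2 arrays. The comparison addresses which liver transcripts differ with oleanolic acid feeding. In a pool of whole liver, fewer cells of a type and less RNA per cell cannot be told apart.

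A liver cell takes up cholesterol through several routes. LRP1 binds remnant particles, for which apolipoprotein E is a main ligand, and SR-BI, the product of Scarb1, draws cholesteryl ester from HDL. MYLIP, also called IDOL, is a ubiquitin ligase that marks lipoprotein receptors for breakdown. Cholesterol leaves through ABCA1, which loads it onto lipid-poor apolipoprotein A-I, through ABCG1, which passes it to HDL, and through the ABCG5 and ABCG8 half-transporters, which pair to secrete sterols into bile. SOAT2 esterifies cholesterol for storage and for export in lipoproteins. Liver X receptors (LXRs), nuclear receptors for oxysterols, raise transcription of Abca1, Abcg1, Abcg5, Abcg8 and Mylip.

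Because Abcg5 and Abcg8 are divergent neighbours, and both had a lower signal in the oleanolic acid array, the DNA between their transcription starts is shown, along with the LXR-type element before the start of Abca1. Both come from the RefSeq promoter table of GRCm38.p6, which holds 250 bases before and 50 bases after a start and had entries for 5 of the 7 measured genes. The first line is the plus strand of chr17:84683012-84683120, the 109 bases from the start of Abcg5, which is read leftward, to a start of Abcg8, which is read rightward; capitals mark GATA boxes. The second line is the minus strand of chr4:53159940-53159969, with the LXR-type direct repeat in capitals.
Abcg5 to Abcg8 interval: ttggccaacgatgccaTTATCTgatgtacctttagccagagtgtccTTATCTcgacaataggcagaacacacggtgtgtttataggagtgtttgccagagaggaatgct
Abca1 direct repeat: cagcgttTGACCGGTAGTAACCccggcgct

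The motifs were searched on both strands. The GATA box, AGATAA, occurred 2 times in the Abcg5 to Abcg8 interval, where it reads TTATCT, and was found in 11.2% of all 32851 promoter windows. That share counts windows with at least 1 match, and a window is longer than the interval, so the values are not like for like. The interval also held 1 TATA box, TATAAA, left in small letters above, a motif found in 13.6% of windows. The LXR-type repeat was GGTNA, any 5 bases, then GGTCA. It began 67 bases before the start of Abca1, in the reverse orientation, and occurred in 0.207% of all windows. Among the member windows only that of Abca1 held the repeat or the E-box CACGTG, which 7.15% of all windows held. A match is a description of the letters and was not tested as a binding site.

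Across the set, no gene differed by as much as 0.5 on the log2 scale between the arrays. The log2 ratios (oleanolic acid over control) ran from -0.33 for Abcg5 to 0.25 for Scarb1, with a median of 0.06, beside a median of 0.0012 over all 7137 measured genes. Measured means that the signal reached the median of at least one array, 61.5 in the control or 59.3 in the oleanolic acid array. All 7 genes passed this filter, through 9 of their 11 probe sets. Ratios were above 0 for 4 genes and below 0 for 3. Of the 7, 0 were past 0.5 in either direction, and 0 were past 1.5, the size named in the submitters' design text. Over all measured genes 5.87% were past 0.5 and 0.392% past 1.5, so a set of this size with no such gene is near the background.

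**Figure D1:**
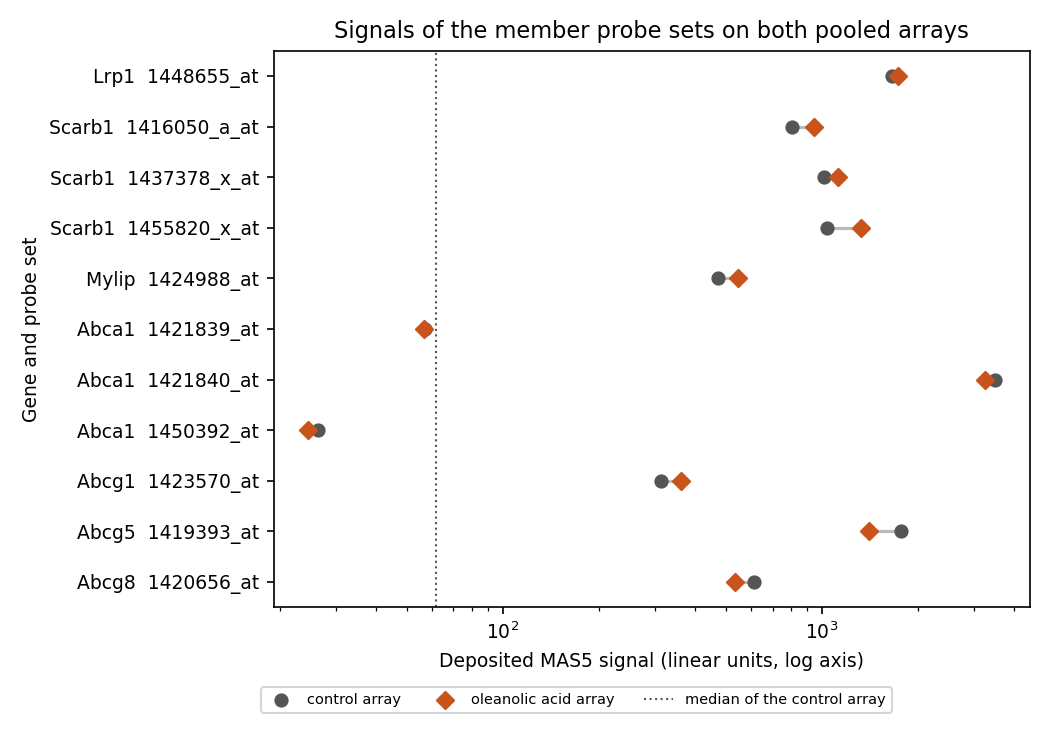
Deposited signals (linear MAS5 units, log axis) of the 11 member probe sets on the control array (grey circles) and the oleanolic acid array (orange diamonds), with the median of the control array as a dotted line. The paired symbols lie close together throughout, and 2 of the 3 Abca1 probe sets lie below the median.

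The error beside each ratio is the probe set SD. Where a gene had several measured probe sets it is the SD between them. Where it had 1, it is the pooled SD between probe sets of one gene in the same of 4 signal bands, 0.17 in the third band and 0.13 in the brightest. It measures disagreement between probe sets within these arrays. It covers neither variation between animals nor error shared by all probe sets of a pool or array.

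The uptake receptors had similar or slightly higher signals in the oleanolic acid array. Lrp1 gave a control signal of 1663 and an oleanolic acid signal of 1728, which is 0.06 on the log2 scale (probe set SD 0.13). That difference of 3.91% was smaller than the probe set SD. Scarb1 was reported by 3 probe sets, and each had the higher signal in the oleanolic acid array. The first, the _a_at set, went from 804 to 946, and the pair of _x_at sets from 1012 to 1119 and from 1037 to 1329. The _x_at suffix marks sets whose probes can also match other transcripts. The gene's log2 ratio was 0.25 ± 0.11 (SD, n = 3 probe sets), a signal 18.5% higher, and its probe sets ranged from 0.14 to 0.36. The direction was thus the same in every probe set while the size varied: the brightest set alone gave 0.36 and the _a_at set alone 0.23.

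Mylip, which acts on lipoprotein receptors after translation, went from 474 in the control to 547. Its log2 ratio of 0.21 was a little larger than the probe set SD of 0.17 and rested on 1 probe set.

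**Figure D2:**
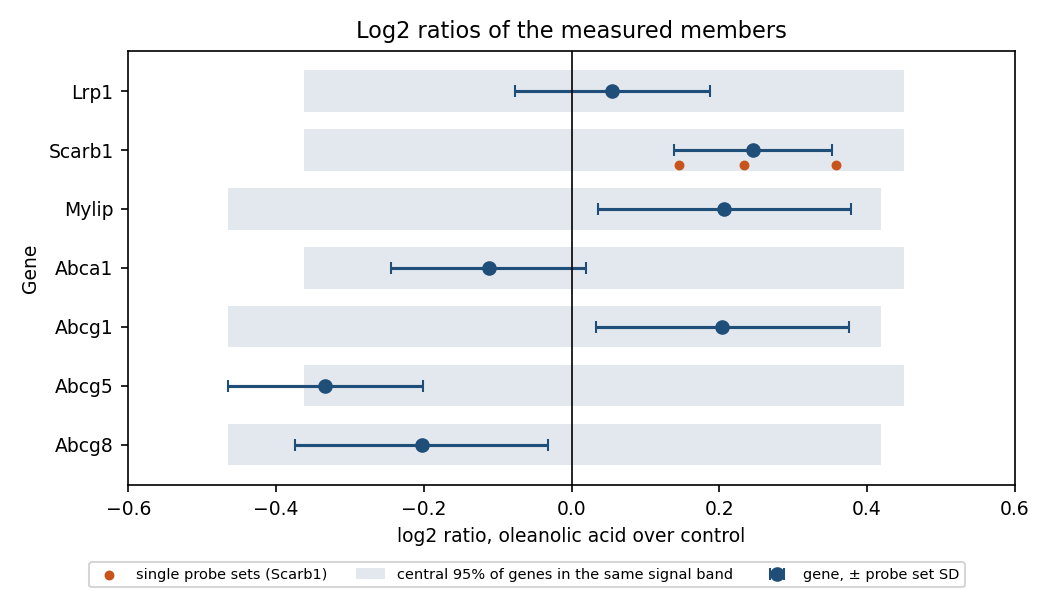
Log2 ratio (oleanolic acid over control) of the 7 measured genes with the probe set SD as bars; the shaded blocks span the central 95% of genes in the same signal band, and orange points are the single Scarb1 probe sets. Every gene's point lies inside its block, with Abcg5 at -0.33 nearest to an edge, which is at -0.36.

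The transporters that hand cholesterol to HDL went in opposite directions by small amounts. Abca1 had 3 probe sets, reading 3494 against 3233, 57.2 against 56.4 and 26.4 against 24.5, the control first in each case. Each was lower in the oleanolic acid array, but the dimmer sets were below the array medians and did not enter the gene value. The measured set gave a log2 ratio of -0.11, smaller than the probe set SD of 0.13. Counting all 3 gave -0.08. Abcg1 read 313 in the control and 361 with oleanolic acid, or 0.20 as a log2 ratio (probe set SD 0.17).

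The biliary transporter pair had the lowest ratios of the set. Abcg5 read 1771 in the control and 1406 with oleanolic acid, a difference of -20.6% in signal and of -0.33 in log2, with a probe set SD of 0.13. Abcg8 read 613 and 533, a difference of -13.1% and a log2 ratio of -0.20 (probe set SD 0.17). Both partners of the heterodimer thus had the lower signal in the oleanolic acid array. The ratios of the pair differed by 0.13, less than their combined probe set SD of 0.22. Each was reported by 1 probe set, so neither direction has a second probe set behind it.

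Set against all measured genes, Abcg5 lay at percentile 7.93 of the log2 ratios and Abcg8 at 16.8, while Scarb1 lay at 89.1, Mylip at 86.0 and Abcg1 at 85.8. Bright genes scatter less, and within its own signal band Abcg5 lay at percentile 3.19 and Scarb1 at 93.2. The central 95% of that band ran from -0.36 to 0.45, so both were inside it. The ratio of 5 genes exceeded the probe set SD, and for Abcg5 and Scarb1 it was more than 2 times the SD. The share of all measured genes past these sizes was not computed, so the counts are no result about the members. In the brightest band, 7.51% of genes lay at least as far from 0 as Abcg5, and 12.8% at least as far as Scarb1. The SD of Scarb1 is that between its own probe sets, while that of Abcg5 is pooled over its signal band.

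**Figure D3:**
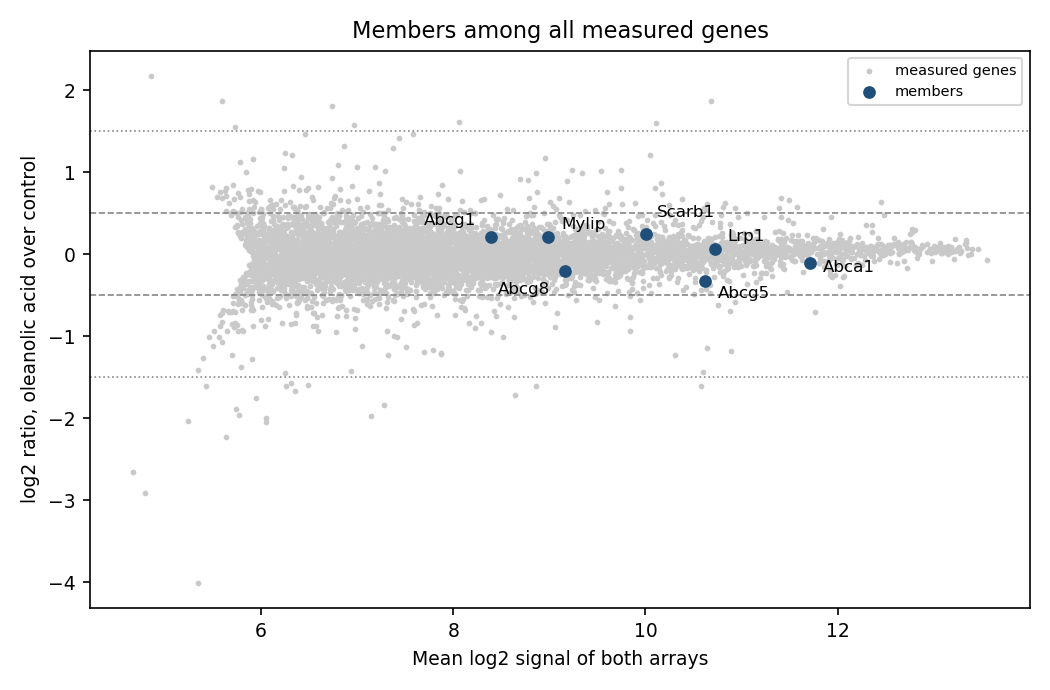
Log2 ratio against mean log2 signal for all 7137 measured genes (grey) and the 7 members (blue); dashed lines mark 0.5 and dotted lines 1.5 in each direction. The members sit in the middle to bright range of signal, between -0.33 and 0.25, inside the dashed lines.

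Head-to-head pairs with starts within 1000 bases of each other in the promoter table give a background for Abcg5 and Abcg8. Of 252 such pairs with both genes measured, 147 (58.3%) had ratios of 1 sign. Abcg5 and Abcg8 are 1 of these 147 pairs. This describes these arrays and was not tested.

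The 5 members named above as LXR targets did not share a direction, with Abcg1 and Mylip above 0 and Abca1, Abcg5 and Abcg8 below it. Nr1h3, which encodes LXR-alpha, read 344 and 366 (0.09 in log2, probe set SD 0.17). In a list of 23 LXR receptors, partners and other textbook targets, 17 were measured, 5 above 0 and 12 below, with a median of -0.02. None was above 0.5 and 2 were below -0.5. These were Rxrb, a retinoid X receptor gene, which read 420 and 234 (-0.85, probe set SD 0.17), and Cyp7a1, which catalyses the first step of bile acid synthesis, at -0.64 ± 0.02 (SD, n = 2 probe sets). The lipogenic regulator gene Srebf1 was at -0.24 and fatty acid synthase Fasn at -0.21 (probe set SD 0.13 for each).

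Receptors and adaptors near Lrp1 and Scarb1 in function were all within 0.5 of 0. Of 20 listed genes 14 were measured, 7 above 0 and 7 below, with a median of 0.02. The highest were the lipolysis-stimulated receptor Lsr, with signals of 763 and 924 (0.28, probe set SD 0.13), and Vldlr (0.27, probe set SD 0.27). The lowest were the sorting receptor Sort1 at -0.34 ± 0.70 (SD, n = 2 probe sets) and the macrophage scavenger receptor Msr1 at -0.24. The direction of Sort1 and Vldlr is not settled: Sort1 was at 0.15 with its brightest probe set alone, and Vldlr at -0.14 when its dim probe sets were counted. Msr1 was at -0.42 with all probe sets counted. Lrpap1, the chaperone of LRP1, was at 0.06 ± 0.15 (SD, n = 4 probe sets).

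Among 10 measured genes that act with MYLIP or on receptor turnover, Usp2 stood far from the rest. Usp2 encodes a deubiquitinase known to act on MYLIP and is also a rhythmically expressed gene. It read 724 and 221, or -1.71 ± 0.24 in log2 (SD, n = 2 probe sets), past the 1.5 size. The other members of the list lay between -0.31 for the ubiquitin-conjugating enzyme gene Ube2d1, which was dim (61.9 and 49.9), and 0.04. The list median was -0.05. Ube2d1 was at -0.06 with the higher floor. The labels state no hour at which livers were taken. Some genes of the circadian clock also differed between the arrays, with Arntl at 1.87 and Dbp at -1.23. Over all 7137 measured genes, 73 were past 1 in either direction. Other clock genes differed less: Clock was at 0.76, Cry1 at 0.41, Cry2 at -0.48 and Bhlhe40 at -0.29. Arntl was dim, with a mean log2 signal of 5.6, and passed the filter through the oleanolic acid array, where it was higher. The part of such clock differences in the Usp2 value, in the member values and in the other ratios given here was not tested.

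Among genes of sterol transport inside the cell and of ester handling, 21 were measured, 14 below 0 and 7 above, beside 50.2% above 0 over all measured genes. The median was -0.08 and 2 were below -0.5, as were 231 of the 7137 measured genes. The sterol carrier gene Stard4 read 353 and 220 (-0.68 ± 0.02, SD, n = 2 probe sets), and its relative Stard5 719 and 522 (-0.46 ± 0.09, SD, n = 3 probe sets, and -0.56 without _x_at and _s_at sets). Endothelial lipase Lipg was at -0.64 ± 0.04 (SD, n = 2 probe sets), reading 111 and 71.6, but at -0.45 with all probe sets counted. The caveolin gene Cav1 was at -0.48 (probe set SD 0.27). Npc1, which exports cholesterol from lysosomes, was at -0.21 and Lcat, which esterifies cholesterol in plasma, at 0.16 (probe set SD 0.13 for each).

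Genes of a wider list of ABC transporters, not all of them carriers of sterols or phospholipids, showed both directions. Of 10 measured, 5 were above 0 and 5 below, with a median of 0.02. The bile salt export pump gene Abcb11 read 2379 and 2873 (0.27, probe set SD 0.13), and Abcb4, the canalicular phospholipid transporter gene, 2261 and 2454 (0.12, probe set SD 0.13). The canalicular genes Abcc2 (-0.14) and Abcg2 (-0.12) lay on the other side of 0. Like the Abcb4 ratio, theirs were about as large as the error of 0.13 between probe sets, and only that of Abcb11 was well past it. Whether these canalicular genes share a direction is therefore not settled here. Abcc3, an export pump of the blood-facing membrane, was at 0.26 and Abca8b at 0.27. Abcg3 was the one gene past 0.5, at -1.01 on dim signals of 62.1 and 30.9. With the floor under low signals raised to the array median it was at -0.07.

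**Figure D4:**
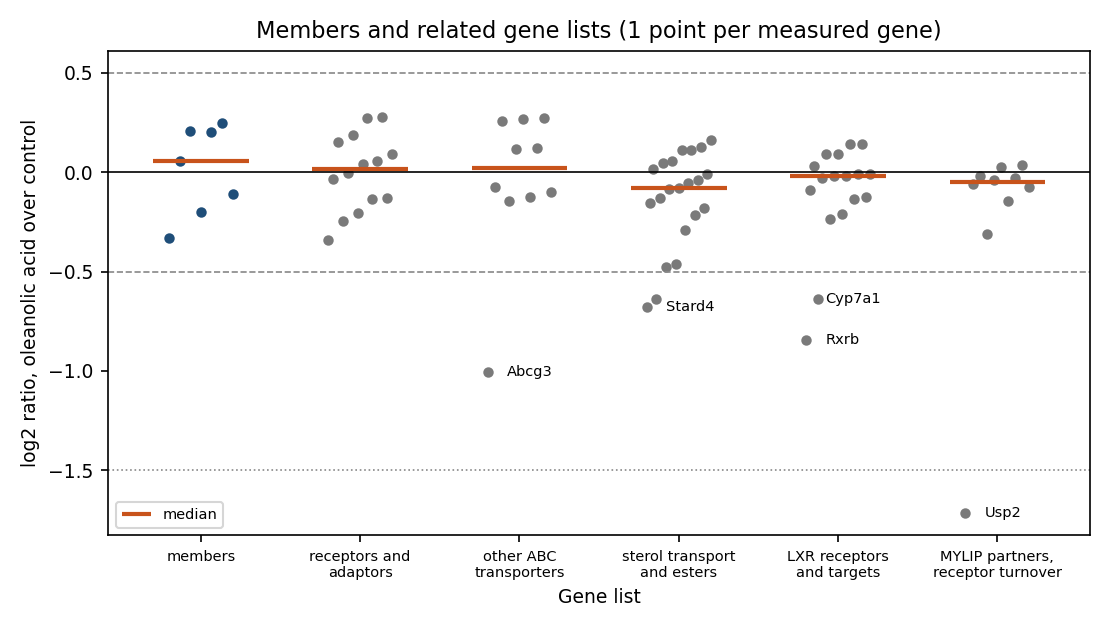
Log2 ratios (oleanolic acid over control) of the 7 members and of each measured gene in 5 related lists, 1 point per gene, with the list median as an orange bar. Medians lie between -0.08 and 0.06, and Usp2 at -1.71 is the point past 1.5.

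Markers of other cells moved between the arrays and their part in the member values was not tested. Abca1, Abcg1, Mylip and Lrp1 are also expressed by macrophages. Of 14 measured macrophage or Kupffer cell markers 13 were below 0, with a median of -0.14 and summed signals of 23440.5 (control) and 21538.8 (oleanolic acid). None was at the floor on both arrays. Marco was the lowest, at -0.67 (probe set SD 0.25). Hepatocyte markers had a median of 0.05 over 9 genes (summed signals 127451 and 130449). Of these, 8 lay between -0.09 for Cps1 and 0.17 for Fgb, and the tyrosine aminotransferase gene Tat was at -0.70. Sinusoidal endothelial markers had a median of 0.03 over 10 genes (5834 and 5902), 7 above 0 and 3 below. The lowest were Cdh5 (-0.35, probe set SD 0.25) and Kdr (-0.32, probe set SD 0.17). All 8 measured exocrine pancreas markers were lower, with a median of -1.68 (1584 and 453). Their values on the oleanolic acid array, from 18.7 for Cpb1 to 51.6 for Cela2a, all lay below its median of 59.3. Those with 1 probe set thus counted as measured only through the control array, where they were high. The filter therefore favoured lower ratios among these dim markers. Both measured B or plasma cell markers were lower too, with a median of -1.79 (1400.2 and 271). These were Ighm at -1.97 ± 1.31 (SD, n = 3 probe sets) and Jchain at -1.61 (probe set SD 0.27). Jchain, at 43.8 on the oleanolic acid array, and the cholangiocyte marker Epcam below also passed the filter only through the control array. Cd79a, Cd79b and Ms4a1 were not measured. Enterocytes also express Abcg5 and Abcg8. Of the enterocyte markers Vil1 and Lct were at the floor on both arrays, and the measured Fabp2 and Apoa4, which liver expresses too, were at -0.01 and 0.0032. Stellate cell markers had a median of -0.04 over 10 genes (9413 and 9131), with Col1a1 and Des not measured. They ran from -0.46 for Lum to 0.66 for Lrat, which was dim (48.1 and 75.9). Of the cholangiocyte markers only Epcam was measured (63.1 and 32.9). Apoe itself, disrupted in all animals, read 194 and 232 on 1 probe set whose position relative to the disruption is not known here, and the ligand gene of ABCA1, Apoa1, was at 0.07 ± 0.02 (SD, n = 4 probe sets), or 0.01 after quantile normalization and 0.0005 after intensity-dependent centring.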

How the data were processed

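The authors deposited linear intensities, 1 per probe set, computed with MAS5 according to the submitters' processing notes; the version is not given in the sources used here. The mean after trimming 2% at each end was 300.1 on both arrays, so no scaling was added. Gene names came from the platform annotation, and all 7 measured genes matched RefSeq by gene identifier. Of 22690 probe sets, 64 were array controls and were left out, with 691 carrying several symbols and 1555 carrying none. Signals were raised to a floor at the 25th percentile of each array (10.7 and 10.1) and converted to log2, and measured probe sets of a gene were averaged. The table used here has no detection calls, and the number of arrays limits the precision. The calculations ran in Python 3.11.15 and were tested on simulated data. Named were all members, up to 4 genes per related list with the largest ratio, and genes fixed by interest. Of the last, Soat1, Npc1l1 and Nr1h2, among others, were not analysed here. Abcc2, Abcg2, the clock genes Arntl, Dbp, Clock, Cry1, Cry2 and Bhlhe40, and the ABC family genes of the last section fall outside this rule. They were named with their values known. The members, lists and sizes were chosen with earlier results of these data known.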

Additional observations from a re-analysis of the deposited data

How the results depend on the processing

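The member genes were recomputed under 8 alternatives: a floor at the array median, no floor, all probe sets counted, both arrays at or above the median, the brightest probe set alone, no _x_at or _s_at sets, quantile normalization and intensity-dependent centring. Of the 56 member values, 39 were identical to the reported ones, mostly because 5 of the genes have 1 bright probe set that floors and filters cannot touch. The 17 that differed kept their sign, and 1 moved by more than its probe set SD: Scarb1, at 0.36 with its brightest probe set. Most of the 17 came from quantile normalization and intensity-dependent centring, which shifted the members little. The probe sets of Scarb1 share 1 sign, as do those of Abca1, so the kept signs say little about direction. Abcg5 ranged from -0.34 to -0.33, Abcg8 from -0.20 to -0.18, Abca1 from -0.15 to -0.08, Abcg1 from 0.20 to 0.23, Mylip from 0.21 to 0.23 and Lrp1 from 0.04 to 0.06. Counts past 0.5 in related lists moved by at most 1. With all probe sets counted, 1 receptor gene, 2 transporter genes and 1 sterol transport gene were past 0.5 (0, 1 and 2 otherwise). Without _x_at and _s_at sets 3 sterol transport genes were, Stard5 included, and with the higher floor or with both arrays at or above the median 0 transporter genes were. Counting all probe sets also moved the median of all genes to -0.08. No paired analysis was possible because there was 1 array per diet, and no replicate could be left out.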

Other observations

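Taken by gene name, 26 ABC transporter genes of subfamilies A to G were measured, of 36 with a probe set. Their median log2 ratio was -0.04, with 12 above 0 and 14 below, and 24 lay within 0.5 of 0. Abcg5 was the third lowest of them and Abcg8 the fifth lowest. Below Abcg5 lay the dim Abcg3 and Abcc5, at -0.59 on signals of 101.5 and 67.5. Between the pair lay Abce1, a ribosome recycling factor without a transport function, at -0.25 ± 0.09 (SD, n = 2 probe sets). The highest were the peroxisomal fatty acyl transporter gene Abcd2 (0.48, signals of 77.5 and 108) and Abcf3 (0.45 ± 0.29, SD, n = 2 probe sets). This family was looked at after the member values were known.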
